A study of Mus musculus with 15 samples.

Results

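The genes described here are 46 genes of DNA replication and mitosis, chosen by gene symbol and followed through the developing mouse lens and the whole embryo. The list holds 23 replication genes and 23 mitosis genes. Of these, 44 had values in the table of 14615 gene symbols, 21 of replication and 23 of mitosis, and all 44 passed the filter on low values. The replication genes Cdt1 and Gins2 were not analysed here. The chosen rows all lay at loci of the same name: 178 of 178 transcripts had a nearest reference transcript with the member's symbol.

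RNA-seq, which counts fragments of messenger RNA, was run on wild type C57BL/6NTac mouse embryos that carried no engineered allele and received no stated treatment. Lenses were dissected on every other embryonic day (E), from E10.5 through E12.5 and E14.5 to E16.5, with 3 biological replicates per stage, each a pool of 50, 29, 18 and 17 lenses in that order. The reference group, whole body, was 3 libraries of whole embryos labelled as E10.5 to E12.5, and how the days were pooled is not stated. Whole embryos hold many tissues, dividing ones among them, so whole body is a mixture and not a tissue at rest. Values are FPKM (fragments scaled to transcript length and library size), summed over the transcripts of a gene. Log2 fold changes, with their standard errors (SE), are differences of log2(FPKM + 1), which understates the change of genes with low values. A gene was called where limma's moderated test gave a Benjamini-Hochberg adjusted p under 0.05 over all 14532 genes tested.

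A dividing cell copies its DNA in S phase and separates the copies in mitosis. Before S phase, Cdc6 and Cdt1 load the Mcm helicase, a ring of subunits Mcm2 to Mcm7, onto replication origins, and cyclin E with Cdk2 helps to start copying. The polymerases, their sliding clamp Pcna and the enzymes that make deoxynucleotides then do the work. Many of these genes are bound by E2F factors. Mitosis genes such as Ccnb1, Cdk1 and Plk1 peak later in the cycle, and the MuvB complex with Mybl2 or Foxm1 acts on many of their promoters through CHR elements (cell cycle genes homology region). In the embryonic lens, cells of the front epithelium divide, while cells that elongate into fibres leave the cell cycle and make crystallins, the abundant lens proteins.

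The libraries matched their labels in their lens genes. Summed FPKM of 7 lens epithelium genes was 1429 to 2491 in the 12 lens libraries and 151 to 169 in whole body. Crystallins made up 0.05% to 0.07% of all FPKM at E10.5, 28.2% to 37.3% at E16.5 and at most 0.006% in whole body. At E10.5 the libraries were uneven in genes of other tissues. Afp, made by the yolk sac and fetal liver, read 339.6 and 625 FPKM in replicates 1 and 3 and 6.91 in replicate 2, and mesenchyme genes summed to 2896 in replicate 3 against 407 and 400.0 in the others. Some values are therefore also given without E10.5 replicates 1 and 3, which leaves 1 library at that stage with no spread of its own. The FPKM sum of a library ran from 707562 to 1629915. The sequencing depth is unknown, so the precision that it gives cannot be stated.

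The promoters of the members are shown first, because the 2 classes differ there in letters that the choice of genes did not use. The promoter table is from RefSeq (build GRCm38.p6) and holds, for each start site, 250 bases before the start and 50 from it on. It matched 37 of the 46 members, 18 of replication (Cdt1 among them) and 19 of mitosis. The 3 kinds of short word searched, on both strands, were E2F words (TTTGGCGC, TTTCGCGC, TTTCCCGC or TTTGCCGC), CHR words (TTTGAA or TTTAAA) and the CCAAT box (CCAAT). E2F words can overlap, as TTTCGCGC and GCGCCAAA do in Mcm5. The stretches below run from 160 bases before the start to 20 after it, 5′ to 3′ on the gene's own strand, with words of any of these kinds in capitals. Mcm6, Mcm5 and Cdc6 are shown for the E2F words of replication genes, Mcm2 for its different course in the lens, Cdk1 as the only mitosis gene with an E2F word, and Ccnb2 and Cdc20 for the CHR words of mitosis genes.
Mcm6: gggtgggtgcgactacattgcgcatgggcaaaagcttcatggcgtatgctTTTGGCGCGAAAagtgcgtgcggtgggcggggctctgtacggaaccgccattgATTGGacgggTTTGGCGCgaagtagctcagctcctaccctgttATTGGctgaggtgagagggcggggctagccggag
Mcm5: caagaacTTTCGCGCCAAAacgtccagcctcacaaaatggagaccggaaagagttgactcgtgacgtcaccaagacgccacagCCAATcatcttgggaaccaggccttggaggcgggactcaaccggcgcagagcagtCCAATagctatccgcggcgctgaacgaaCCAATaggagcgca
Cdc6: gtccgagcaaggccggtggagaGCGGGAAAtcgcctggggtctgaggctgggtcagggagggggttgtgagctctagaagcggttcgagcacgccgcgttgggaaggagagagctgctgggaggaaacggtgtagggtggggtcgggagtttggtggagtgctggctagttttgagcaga
Mcm2: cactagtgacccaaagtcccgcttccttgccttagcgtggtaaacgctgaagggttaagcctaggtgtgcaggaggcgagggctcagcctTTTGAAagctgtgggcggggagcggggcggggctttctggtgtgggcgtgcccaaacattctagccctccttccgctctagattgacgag
Cdk1: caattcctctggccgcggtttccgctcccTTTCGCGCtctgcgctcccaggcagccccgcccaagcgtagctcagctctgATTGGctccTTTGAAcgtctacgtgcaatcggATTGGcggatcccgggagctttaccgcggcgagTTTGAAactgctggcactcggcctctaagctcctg
Ccnb2: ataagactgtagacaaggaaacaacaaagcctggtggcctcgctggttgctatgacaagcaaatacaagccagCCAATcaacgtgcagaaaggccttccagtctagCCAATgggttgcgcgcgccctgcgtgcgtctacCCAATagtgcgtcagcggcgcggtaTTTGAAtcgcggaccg
Cdc20: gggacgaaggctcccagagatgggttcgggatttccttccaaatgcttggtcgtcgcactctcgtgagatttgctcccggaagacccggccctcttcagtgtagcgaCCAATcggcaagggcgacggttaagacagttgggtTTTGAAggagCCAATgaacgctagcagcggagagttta
These stretches lie at chr1:128359686-128359865 (minus strand, Mcm6), chr8:75109349-75109528 (plus strand, Mcm5), chr11:98907991-98908170 (plus strand, Cdc6), chr6:88898761-88898940 (minus strand, Mcm2), chr10:69352893-69353072 (minus strand, Cdk1), chr9:70421535-70421714 (minus strand, Ccnb2) and chr4:118437324-118437503 (minus strand, Cdc20).

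An E2F word stood in the 300-base window of 9 of 18 replication genes (50.0%) and in 1 of 19 mitosis genes (5.26%), against 4.55% of 10351 tested genes and 2.6% of all 27025 RefSeq genes with a window. CHR words showed the opposite split. They stood in 16 of 19 mitosis genes (84.2%) and 5 of 18 replication genes (27.8%), against 22.2% of tested genes and 30.6% of all. Within 50 bases of the start the CHR shares were 73.7% of mitosis genes, 11.1% of replication genes and 6.4% of tested genes. The CCAAT box was found in 15 mitosis genes (78.9%) and 10 replication genes (55.6%), against 43.1% of tested genes. Within 50 bases of the start the CCAAT shares were 47.4% of mitosis genes and 44.4% of replication genes, against 17.2% of tested genes. The E2F shares there were 27.8% of replication genes and 0 of 19 mitosis genes, against 1.59% of tested genes. Mcm6 held 3 E2F words and no CHR word, whereas Cdc20 held a CHR word beginning 18 bases before its start and no E2F word. The Mcm genes with a window were Mcm2, Mcm3, Mcm5, Mcm6 and Mcm7, of which Mcm2 alone had no E2F word. Its window held a CHR word beginning 70 bases before the start, and that of Mcm5 held one beginning 221 before. At E16.5, measured replication genes without an E2F word kept 12.9% (Rrm2) to 70.8% (E2f1) of their E10.5 level. Those with an E2F word kept 14.4% (Cdc6) to 43.8% (Pola1). Whether these words go with the course in the lens was not tested. These are matches of letters and not measured binding sites, and a window without a match says nothing of the factor.

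**Figure D1:**
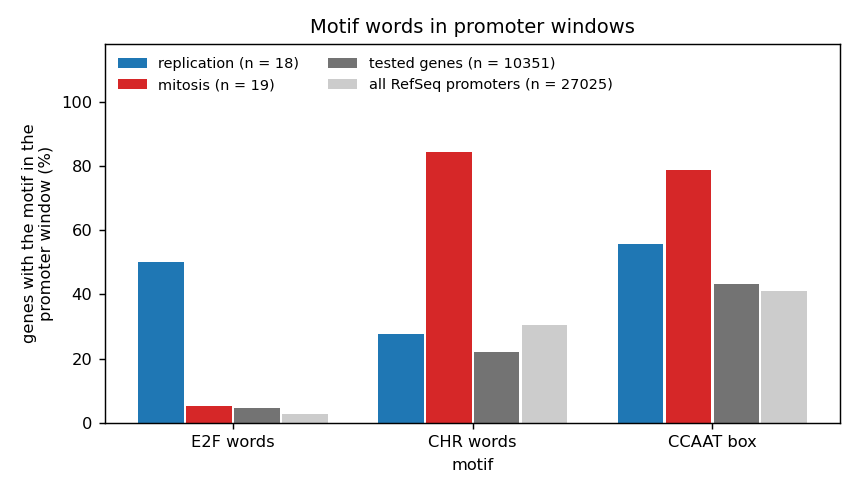
Share of genes, in percent, whose promoter window holds at least 1 E2F word, CHR word or CCAAT box, for replication genes (blue, n = 18), mitosis genes (red, n = 19), the tested genes with a window (dark grey) and all RefSeq genes with a window (light grey). E2F words are most frequent in the blue bars (50.0%) and CHR words in the red bars (84.2%).

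From E10.5 to E16.5 every measured member fell in the lens. All 21 replication genes and all 23 mitosis genes were lower at E16.5 with no overlap between the 3 libraries of each stage, where 36.7% of all genes tested were lower and 37.3% were lower without overlap. The median log2 fold change was -2.09 for replication genes and -2.31 for mitosis genes, against -0.01 over all genes tested. In FPKM a replication gene kept a median of 22.6% of its E10.5 level and a mitosis gene 20.1%, while the median gene kept 95.6%. Bulk RNA cannot tell apart fewer dividing cells from less of these transcripts per cell. Without E10.5 replicates 1 and 3, which left 1 E10.5 library, the median log2 fold changes were -2.15 for replication genes and -2.35 for mitosis genes. The moderated F test over the 4 lens stages called all 44 members, where it called 77.3% of all genes. Marker genes of some other tissues were also lower at E16.5 than at E10.5. These were 11 of 11 macrophage, 9 of 10 endothelium, 9 of 10 periocular mesenchyme and 8 of 9 surface ectoderm genes. Their timing differed: from E10.5 to E12.5 the medians were -0.08, -0.8, -0.26 and -2.87 in that order. From E12.5 to E14.5 they were -2.77, -1.89, -2.79 and -0.73. Other lists were more mixed at E16.5. Neural retina genes were 4 lower and 2 higher of 8, and neuron genes 4 and 1 of 8. Muscle genes were 5 lower and 2 higher of 10, and erythroid genes 7 and 2 of 10. The summed FPKM of macrophage genes ranged over 129 to 156 at E10.5 and 5.86 to 16.6 at E16.5, and that of endothelium genes over 569 to 638 and 103 to 166. Mesenchyme genes summed to 400.0 to 2896 and then 185 to 252, and surface ectoderm genes to 447 to 549.9 and then 32.5 to 44.1. No macrophage, endothelium, mesenchyme or surface ectoderm gene was at 0 in all 3 E10.5 libraries. In all 3 E16.5 libraries 1 macrophage gene and 2 surface ectoderm genes were at 0. The part of other tissues in the fall of the members was not tested.

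**Figure D2:**
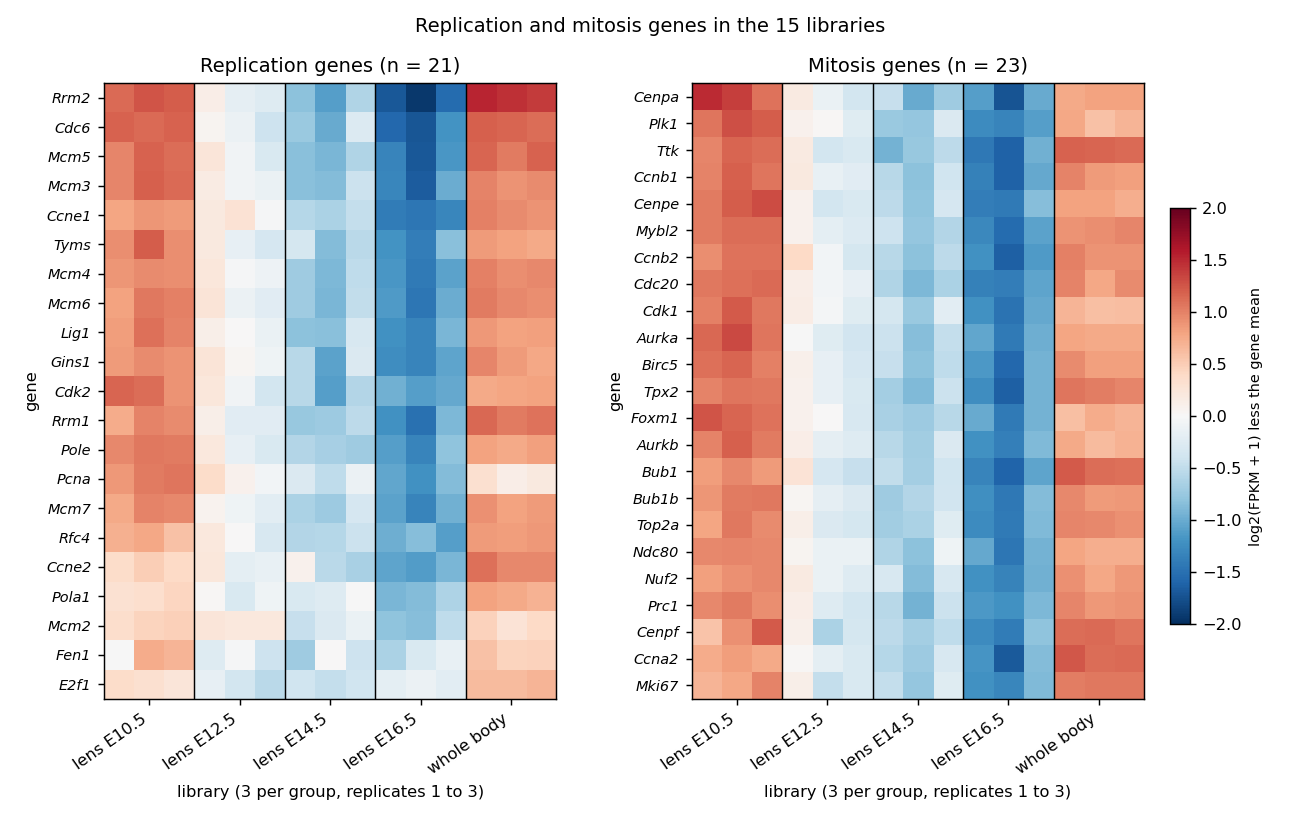
Log2(FPKM + 1) of each measured member in each of the 15 libraries, less the gene's mean over all libraries (red above, blue below), with genes in rows ordered by their change from E10.5 to E16.5 and libraries in columns. The E10.5 and whole body columns are red in most rows and the E16.5 columns blue, and the rows of Mcm2, Fen1 and E2f1 change least.

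The genes of origin licensing and of the helicase fell, Mcm2 least. Cdc6 (chr11:98907801-98923940, plus strand), which loads the helicase onto origins, read 52.5, 50.5 and 52.6 FPKM at E10.5, 23.4, 20.7 and 16.7 at E12.5, 13.1, 10.8 and 18.5 at E14.5, 6.95, 6.19 and 9.25 at E16.5, and 53, 52 and 49.9 in whole body. All 3 E16.5 libraries lay below all 3 at E10.5, which overlapped whole body, and the change was -2.66 ± 0.17 (SE, adjusted p = 2.39e-09). Mcm5 (chr8:75109569-75128439, plus strand), a helicase subunit, read 195, 223 and 213 FPKM at E10.5, 117, 93.6 and 79.6 at E12.5, 54.8, 51.5 and 64.2 at E14.5, 38.8, 29.6 and 43.5 at E16.5, and 222, 203 and 223 in whole body. Mcm3 (chr1:20802968-20820312, minus strand), another subunit, read 211, 245 and 237 FPKM at E10.5, 119.9, 101 and 97.1 at E12.5, 59.1, 58.2 and 79.1 at E14.5, 42.6, 33.2 and 53.3 at E16.5, and 213, 201 and 206 in whole body. Both fell between each stage and the next without overlap, with changes over all stages of -2.48 ± 0.14 (SE, adjusted p = 6.52e-10) for Mcm5 and -2.42 ± 0.15 (SE, adjusted p = 1.32e-09) for Mcm3. Mcm4, Mcm6 and Mcm7 changed by -2.14, -2.14 and -2.01 on the log2 scale. Gins1, which joins the Mcm ring in the active helicase, fell from 25.6 ± 0.93 to 5.22 ± 0.59 FPKM (SD, n = 3). Mcm2 (chr6:88883474-88898780, minus strand) stood apart and read 243, 259.9 and 264 FPKM at E10.5, 226, 221 and 221 at E12.5, 138, 156 and 174 at E14.5, 109, 106 and 134 at E16.5, and 262, 232 and 251 in whole body. Its E12.5 libraries lay just under those of E10.5, and its fall to E16.5 was -1.14 ± 0.09 (SE, adjusted p = 3.34e-08).

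Of the genes that supply deoxynucleotides, Rrm2 fell most. Rrm2 (chr12:24708241-24714146, plus strand), the regulated subunit of ribonucleotide reductase, read 217, 237 and 231 FPKM at E10.5, 109, 87.3 and 82.4 at E12.5, 55.3, 45.6 and 65.1 at E14.5, 29.7, 25.3 and 33.4 at E16.5, and 287, 274 and 263 in whole body. It had the largest change of the 44, -2.92 ± 0.13 (SE, adjusted p = 3.78e-11), and was 7.57-fold lower at E16.5. Rrm1, the partner subunit, changed by -2.09 and Tyms, thymidylate synthase, by -2.16 on the log2 scale, both without overlap.

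At the replication fork the members moved less evenly. Pcna (chr2:132249162-132253314, minus strand), the sliding clamp that holds polymerases on DNA, read 217, 247 and 251 FPKM at E10.5, 154, 126 and 115 at E12.5, 97.9, 84 and 109.5 at E14.5, 57.3, 50.9 and 65.2 at E16.5, and 149, 131 and 137 in whole body. Its E10.5 libraries were the highest of any group, whole body included, and the change to E16.5 was -2.03 ± 0.12 (SE, adjusted p = 9.48e-10). Pola1 (chrX:93304767-93632155, minus strand), the catalytic subunit of the polymerase that primes each strand, read 48.1, 49.4 and 52.7 FPKM at E10.5, 39.6, 31.1 and 36.3 at E12.5, 31.3, 32.4 and 38.5 at E14.5, 20.2, 20.8 and 24.8 at E16.5, and 68.7, 66 and 63.4 in whole body. The E12.5 and E14.5 ranges of Pola1 overlapped, and its whole change was -1.16 ± 0.10 (SE, adjusted p = 8.68e-08). Pole, the catalytic subunit of the leading strand polymerase, changed by -2.09, Lig1, the ligase that joins Okazaki fragments, by -2.13, and Rfc4, a subunit of the clamp loader, by -1.67.

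Fen1 (chr19:10199132-10204169, minus strand), the nuclease that trims Okazaki fragments, was the lowest member and an uncertain one. It read 2.8, 5.44 and 5.18 FPKM at E10.5, 2.21, 2.77 and 1.87 at E12.5, 1.34, 2.87 and 1.87 at E14.5, 1.47, 2.12 and 2.46 at E16.5, and 4.74, 4.25 and 4.29 in whole body. Its E12.5 and E16.5 libraries lay below those of E10.5, the 3 later stages overlapped each other, and the change to E16.5 was -0.83 ± 0.23 (SE, adjusted p = 0.00381). It was not called after quantile normalization (-0.52, adjusted p = 0.0503) or with its leading transcript alone (-0.85, adjusted p = 0.157). Against whole body, where it was called lower at E12.5, E14.5 and E16.5, its leading transcript alone stood at 0.84, 0.69 and 0.71 and was not called. In whole body that transcript read 0.09, 4.24 and 0.04 FPKM and the other Fen1 transcript 4.65, 0.01 and 4.25, so the values moved between the 2 from library to library. The locus of Fen1 overlaps Gm10143 (chr19:10198368-10202384, plus strand), annotated as antisense to it, and the sources do not say whether reads were counted by strand. Gm10143 was far higher than Fen1, with means of 72.6 FPKM at E10.5, 17.6 at E16.5 and 71.2 in whole body. It changed by -2.00 ± 0.12 (SE) on the log2 scale from E10.5 to E16.5. Without strand, reads of the 2 genes cannot be told apart.

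Of the genes that lead into S phase, E2f1 changed least. E2f1 (chr2:154559407-154569892, minus strand), a transcription factor that acts on replication genes, read 31.5, 30.4 and 28.8 FPKM at E10.5, 21.5, 18.5 and 16.4 at E12.5, 18.2, 17.1 and 18.2 at E14.5, 21.2, 22.2 and 20.9 at E16.5, and 38.4, 38.3 and 39.4 in whole body. It fell to E12.5 and was not called at either later step, with its E16.5 libraries above those of E14.5. The change over all stages was -0.48 ± 0.09 (SE, adjusted p = 0.000221), and with its leading transcript alone it was not called (-0.33, adjusted p = 0.187). Ccne2 (chr4:11191351-11204779, plus strand), a cyclin E, read 20.7, 22.6 and 21 FPKM at E10.5, 18.6, 13.7 and 14.1 at E12.5, 16.9, 10.6 and 9.71 at E14.5, 7.1, 6.76 and 7.89 at E16.5, and 35, 31.8 and 31.7 in whole body. Whole body was above every lens library for Ccne2, and the change in the lens was -1.45 ± 0.17 (SE, adjusted p = 1.5e-06). Ccne1, the other cyclin E, changed by -2.22 and Cdk2, their kinase, by -2.09. Cdk2 overlaps Pmel, a pigment cell gene, on the other strand, and 15 of the 44 members overlap some annotated gene on the other strand.

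**Figure D3:**
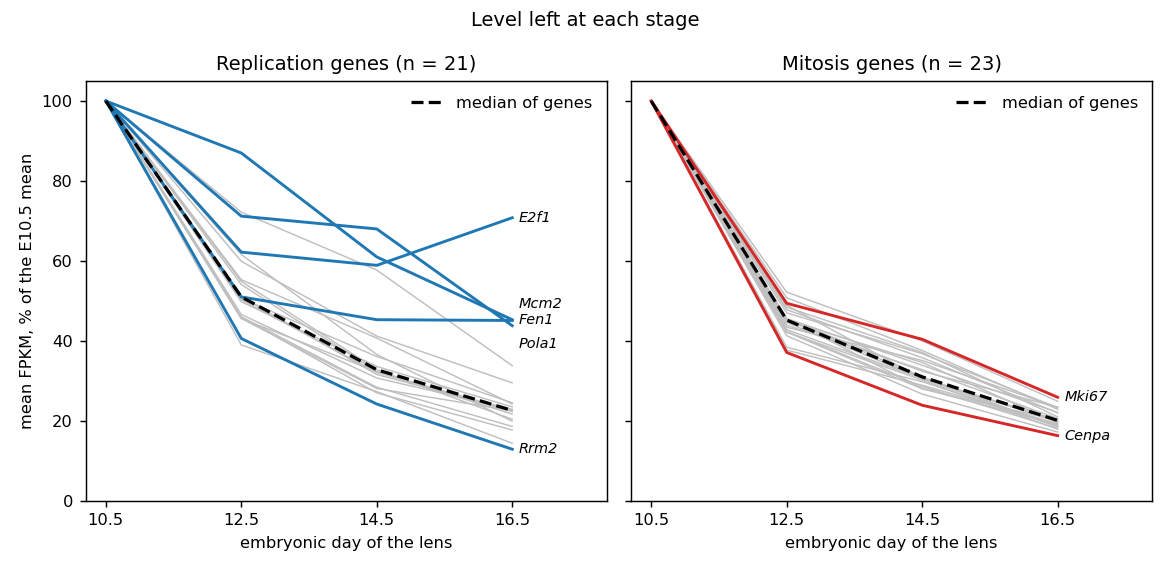
Mean FPKM of each measured member at each lens stage (x axis, embryonic day) as a percent of its own E10.5 mean, replication genes on the left and mitosis genes on the right, with the median as a dashed line. Mitosis genes ended between 16.3% and 25.9%, replication genes between 12.9% (Rrm2) and 70.8% (E2f1).

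The mitosis genes moved in a narrower band, from -2.59 (Cenpa) to -1.95 (Mki67) on the log2 scale. Cdk1 (chr10:69335146-69352938, minus strand), the kinase that drives entry into mitosis, read 179, 209.8 and 185 FPKM at E10.5, 98.3, 86.7 and 74.8 at E12.5, 69.2, 52.5 and 76.9 at E14.5, 37.8, 31.3 and 43.2 at E16.5, and 143, 136 and 137 in whole body. Ccnb1 (chr13:100778650-100786570, minus strand), its cyclin B partner, read 139.9, 162 and 148 FPKM at E10.5, 80.8, 63.6 and 60.0 at E12.5, 47.4, 39.5 and 52.9 at E14.5, 26.9, 22.3 and 34.1 at E16.5, and 141, 127 and 125 in whole body. In the lens, all E10.5 libraries were above and all E16.5 libraries below those of the other stages for both genes, with changes of -2.33 ± 0.14 (SE, adjusted p = 9.89e-10) and -2.41 ± 0.14 (SE, adjusted p = 1.09e-09). Ccna2 (chr3:36564865-36572150, minus strand), cyclin A, which acts in S phase and early mitosis, read 179, 190.3 and 182 FPKM at E10.5, 109, 92.7 and 86.3 at E12.5, 71.2, 64.2 and 85.1 at E14.5, 46.4, 32.4 and 58.2 at E16.5, and 253, 233 and 234 in whole body. The whole body libraries were above all lens libraries for Ccna2, and its change in the lens was -2.02 ± 0.16 (SE, adjusted p = 2.07e-08). Ccnb2, a further cyclin B, changed by -2.37, and Cdc20, which activates the ligase that ends mitosis, by -2.36.

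Among the mitotic kinases, Plk1 (chr7:122159439-122169873, plus strand), which acts from mitotic entry to cytokinesis, read 122, 143 and 135 FPKM at E10.5, 61.5, 58.6 and 48.9 at E12.5, 34, 33.5 and 46.8 at E14.5, 23.5, 22.6 and 26.3 at E16.5, and 99.9, 87.2 and 92.8 in whole body. Ttk (chr9:83834689-83872389, plus strand), a kinase of the spindle checkpoint, read 41.7, 47.4 and 46.2 FPKM at E10.5, 23.6, 15.7 and 16.53 at E12.5, 10.3, 11.8 and 14 at E14.5, 7.01, 6.08 and 10.2 at E16.5, and 48.1, 47.9 and 46.8 in whole body. Both stepped down at each stage without overlap, with changes over all stages of -2.42 ± 0.12 (SE, adjusted p = 1.72e-10) for Plk1 and -2.42 ± 0.17 (SE, adjusted p = 6.74e-09) for Ttk. Aurka and Aurkb, kinases of the spindle poles and of the chromosomal passenger complex, changed by -2.32 and -2.23. Bub1 and Bub1b, of the spindle checkpoint, changed by -2.21 and -2.16, and Birc5, of the passenger complex, by -2.31.

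Genes of chromosomes and kinetochores followed. Cenpa (chr5:30666777-30674830, plus strand), the histone variant that marks centromeres, read 177, 164 and 133 FPKM at E10.5, 71, 56.8 and 48.4 at E12.5, 45.1, 30.5 and 37.9 at E14.5, 28.6, 18.2 and 30.6 at E16.5, and 107, 111 and 110.2 in whole body. It had the largest change of the mitosis genes, -2.59 ± 0.19 (SE, adjusted p = 7.96e-09), and its E10.5 libraries were all above whole body. Cenpf (chr1:189640606-189688086, minus strand), a kinetochore protein, read 121, 152 and 191 FPKM at E10.5, 86.7, 51.6 and 63.1 at E12.5, 56.1, 50.0 and 56.6 at E14.5, 33.1, 30.0 and 45.5 at E16.5, and 177, 178 and 171 in whole body. The E10.5 libraries of Cenpf spread from 121 to 191 FPKM and overlapped whole body, and its change in the lens was -2.06 ± 0.19 (SE, adjusted p = 1.01e-07). Cenpe, a kinetochore motor, changed by -2.40, and Ndc80 and Nuf2, which hold microtubules to the kinetochore, by -2.10 and -2.07.

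Top2a (chr11:98992943-99024189, minus strand), the topoisomerase that untangles sister DNA, read 507, 609.6 and 569 FPKM at E10.5, 319.7, 241 and 231 at E12.5, 181, 190.1 and 249 at E14.5, 123, 109.7 and 159 at E16.5, and 578, 573 and 557 in whole body. Mki67 (chr7:135689784-135716361, minus strand), a coat protein of mitotic chromosomes widely used to mark dividing cells, read 446, 476 and 553 FPKM at E10.5, 304, 200.0 and 226 at E12.5, 199.6, 162 and 235 at E14.5, 119, 112 and 151 at E16.5, and 567, 579 and 579 in whole body. These were the most abundant members at E10.5 with overlapping ranges, and their changes were -2.11 ± 0.15 (SE, adjusted p = 7.45e-09) and -1.95 ± 0.16 (SE, adjusted p = 2.99e-08). Tpx2 and Prc1, which build the spindle and its midzone, changed by -2.31 and -2.07. Foxm1 and Mybl2, factors that act on mitosis promoters, changed by -2.29 and -2.39.

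The fall was steepest in the first 2 days. From E10.5 to E12.5, 20 of 21 replication genes and 23 of 23 mitosis genes were lower, where 26.0% of all genes were, with medians of -0.98 and -1.15. Mcm2 was the member not called (-0.20 ± 0.09, adjusted p = 0.0827). Cenpa (-1.42), Aurka (-1.39) and Cenpe (-1.38) fell most, and among replication genes Cdc6 (-1.33) and Rrm2 (-1.30). At E12.5 a replication gene kept a median of 51.0% of its E10.5 level, from 39.0% for Cdc6 to 87.0% for Mcm2. Mitosis genes kept 45.2%, from 37.1% for Cenpa to 52.2% for Ccna2.

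From E12.5 to E14.5, 17 of 21 replication genes and 17 of 23 mitosis genes were lower, where 22.4% of all genes were. The medians were -0.56 and -0.43. Mcm4, Mcm5 and Rrm2 fell most (-0.74 each). The members not called were Ccne2, Fen1, E2f1 and Pola1, and Ccna2, Cenpe, Top2a, Bub1, Mki67 and Cenpf, with log2 fold changes from -0.38 (Ccna2) to -0.06 (Pola1). The count of 34 was 22 without E12.5 replicate 1 and 17 where limma was run on only these 6 libraries.

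From E14.5 to E16.5, 18 of 21 replication genes and 20 of 23 mitosis genes were lower, where 4.03% of all genes were. The medians were -0.55 and -0.63. Rrm2 (-0.88), Cdc6 (-0.82) and Ccne1 (-0.82) fell most among replication genes, and Bub1 (-0.80), Cdk1 (-0.80) and Ccnb1 (-0.74) among mitosis genes. Cdk2 (-0.29), Fen1 (0.01) and E2f1 (0.25) were not called, nor were Cenpf (-0.59), Cenpa (-0.55) and Prc1 (-0.45). The count of 38 rests on the spread shared by all 15 libraries: it was 1 where limma was run on these 6 libraries alone. It was 17 without E14.5 replicate 3, 17 without E16.5 replicate 2 and 23 without E16.5 replicate 1.

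Over the 3 steps, 27 of 44 members fell each time without overlap between libraries, 13 of 21 replication genes and 14 of 23 mitosis genes, where 2.92% of all genes did.

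At E10.5 the members stood near whole body, and few were called in either direction. Of 44 members 8 were higher and 3 lower in the E10.5 lens, where 55.7% of all genes were called (24.6% higher and 31.2% lower). In this fit of all 15 libraries the share of members called was thus below that of all genes. Pcna was the replication gene that was higher, by 0.77 ± 0.12 (SE, adjusted p = 6.36e-05), and Ccne2 (-0.59 ± 0.17, adjusted p = 0.00739), Pola1 (-0.39 ± 0.10, adjusted p = 0.0047) and E2f1 (-0.35 ± 0.09, adjusted p = 0.00455) were lower. The 7 higher mitosis genes were Cenpa (0.52), Plk1 (0.51), Foxm1 (0.49), Cdk1 (0.46), Cenpe (0.41), Aurka (0.41) and Aurkb (0.38), and none was lower. The class medians were -0.03 and 0.16, against -0.03 over all genes. The difference between the classes was not tested, and the split of calls moved with the processing. Pcna, Cdk1, Foxm1, Plk1 and Pola1 were called in the same direction under each of 26 alternatives, with Pcna between 0.72 and 0.97. The total of 11 called was 20 where only these 6 libraries were fitted and 7 without E10.5 replicate 2. With the crystallins removed and the library totals made equal, 3 mitosis genes were higher and 1 lower. With leading transcripts only, 2 replication genes were higher and 2 lower, against 3 and 2 mitosis genes. After quantile normalization the replication counts were 1 higher and 5 lower and the mitosis counts 7 and 3. Median scaling gave 3 higher and 3 lower replication genes and 8 higher mitosis genes. Without E10.5 replicates 1 and 3, which left 1 E10.5 library, the medians were 0.07 for replication genes and 0.19 for mitosis genes. Other tissues differed between these groups as well: 10 of 11 macrophage and 7 of 10 endothelium genes were higher in the E10.5 lens, and 8 of 8 neuron, 10 of 10 muscle and 10 of 10 erythroid genes were lower. Their part in these differences was not tested.

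**Figure D4:**
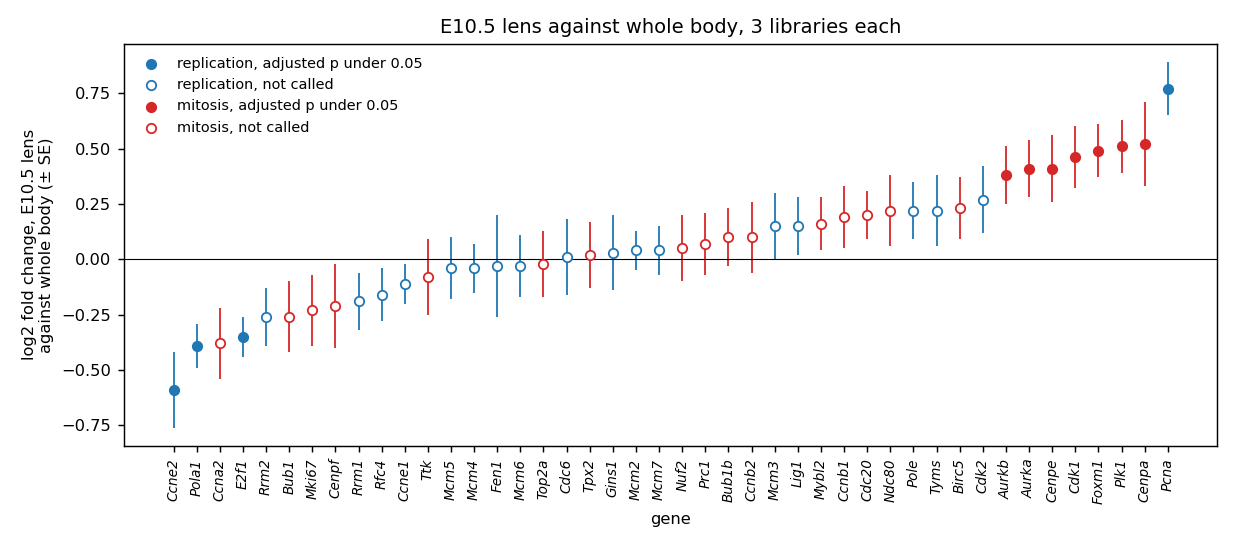
Log2 fold change (± SE) of each measured member, E10.5 lens against whole body, ordered by size, with replication genes in blue, mitosis genes in red and called genes filled. Filled red points lie only above 0, filled blue points below 0 except Pcna (0.77).

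After E10.5 the members fell below whole body. All 4 lens stages were set against the same 3 whole body libraries, so these comparisons are not independent. Whole body was labelled E10.5 to E12.5, so at E14.5 and E16.5 tissue and age differed together and cannot be told apart. At E12.5, 19 of 21 replication genes and 23 of 23 mitosis genes were lower, where 37.1% of all genes were, with medians of -0.91 and -0.98. The 2 not called were Pcna (-0.08 ± 0.12, adjusted p = 0.542), whose libraries overlapped whole body, and Mcm2 (-0.16 ± 0.09, adjusted p = 0.15). All 44 were lower at E14.5, where 42.6% of all genes were (medians -1.49 and -1.48), and at E16.5, where 43.4% were (medians -1.98 and -2.08). At E16.5 Rrm2 was 9.09-fold and Cdc6 6.29-fold lower than in whole body, while E2f1 was 1.77-fold and Mcm2 2.14-fold lower.

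Set side by side, the replication and mitosis genes parted by little. The measure was the median over each class of log2(FPKM + 1) less the gene's own mean over all 15 libraries, replication minus mitosis, and it was not tested. It was -0.12 ± 0.02 at E10.5 and 0.08 ± 0.01 at E12.5 (SD, n = 3), then -0.01 ± 0.05 at E14.5 and 0.06 ± 0.06 at E16.5, with -0.02 ± 0.02 in whole body. The 3 E10.5 libraries (-0.14, -0.11 and -0.12) lay below all 3 at E12.5 (0.07, 0.10 and 0.08), and the E14.5 and E16.5 libraries lay on both sides of 0 or at it. Values with only the leading transcript of each gene were -0.15 at E10.5 and 0.10 at E12.5, and whole body then turned to 0.07. The ranges differed more: at E16.5 mitosis genes kept 16.3% to 25.9% of their E10.5 level and replication genes 12.9% to 70.8%. The upper part of the replication range was E2f1 (70.8%), Mcm2 (45.3%), the uncertain Fen1 (45.1%), Pola1 (43.8%) and Ccne2 (33.8%). The other replication genes kept 12.9% (Rrm2) to 29.5% (Rfc4).

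Within the helicase, Mcm2 parted from the other subunits in the lens. The ratio of its FPKM to the median of Mcm3 to Mcm7 was 1.11 ± 0.05 at E10.5 and 1.15 ± 0.03 in whole body (SD, n = 3). At E12.5 it was 2.1 ± 0.22, from 1.86 to 2.27, at E14.5 2.35 ± 0.28 and at E16.5 2.55 ± 0.19. Every library from E12.5 on lay above every E10.5 and whole body library. This ratio was chosen after the values were seen and was not tested. A single transcript that matched the reference carried 99.1% to 99.7% of Mcm2 in every group, and no annotated gene overlaps its locus. By E16.5 Mcm2 ranged from 106 to 134 FPKM, which overlapped Top2a (109.7 to 159) and Mki67 (112 to 151), whereas at E10.5 it had been below both.

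**Figure D5:**
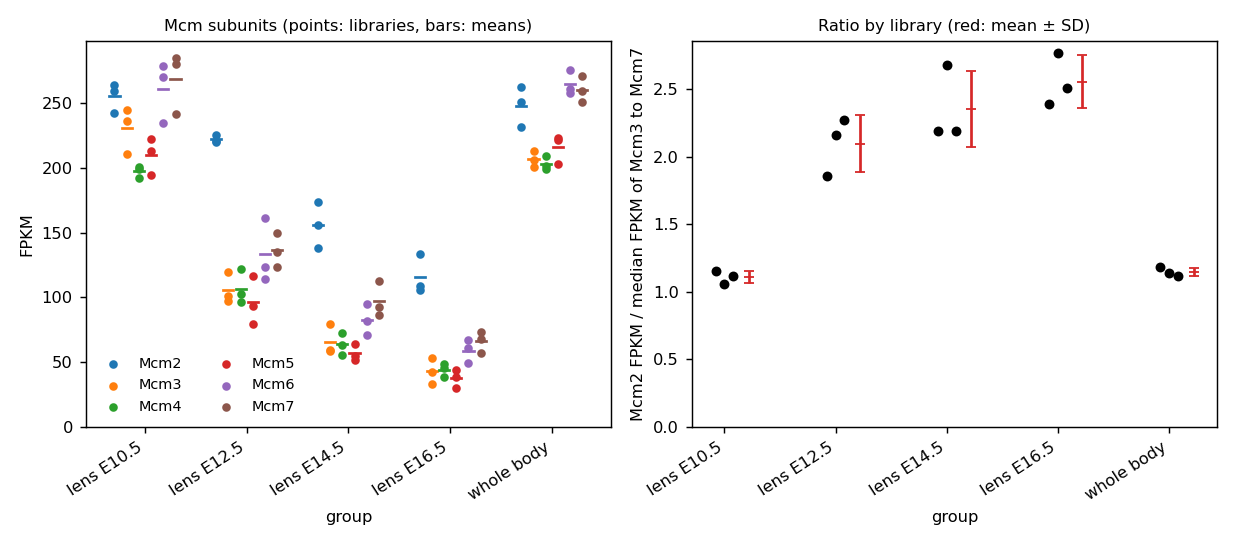
FPKM of Mcm2 to Mcm7 in each library (left, bars are means of 3) and the ratio of Mcm2 to the median of the other 5 subunits in each library (right, mean ± SD in red), by group. Mcm2 lies among the others at E10.5 and in whole body (ratios near 1.11 and 1.15) and above them at E12.5, E14.5 and E16.5 (2.1 to 2.55).

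From E12.5 on, libraries of a stage differed in most members at once. At E12.5, replicate 1 was highest for 42 of 44 members and replicate 3 lowest for 37. At E14.5, replicate 3 was highest for 34 and replicate 2 lowest for 34, and at E16.5 replicate 3 was highest for 41 and replicate 2 lowest for 40. The mean of log2(FPKM + 1) over the crystallin genes was 9.26, 9.97 and 10.32 in replicates 1, 2 and 3 at E12.5, 12.61, 12.78 and 12.71 at E14.5, and 13.7, 13.9 and 13.46 at E16.5, highest at each stage in the library lowest in most members. By the crystallins' share of summed FPKM this held at E12.5 alone. The shares were 7.27%, 11.3% and 12.9% at E12.5, 30.1%, 25.3% and 25.2% at E14.5, and 28.2%, 30.4% and 37.3% at E16.5, so that the E16.5 library highest in most members also had the highest share. With crystallins removed and equal totals, the same libraries of these stages were still highest (42, 34 and 41 members) and lowest (41, 36 and 42). At E10.5 replicate 2 was highest for 29 members and replicate 1 lowest for 34. With that scaling the E10.5 counts of these libraries were 18 and 16. Markers of other tissues also ran with replicate 1 at E12.5, where the mesenchyme means were 6.05, 4.98 and 4.55 and the macrophage means 3.75, 3.16 and 2.98. At E14.5 replicate 2 was lowest in macrophage (0.53, against 1.04 and 0.63 in replicates 1 and 3) and endothelium genes (3.01, against 3.94 and 3.17). The mesenchyme means there were 2.56, 1.92 and 1.91, lowest in replicate 3, the library highest in most members. Replicate 1 was highest in each of these lists at E14.5. At E16.5 replicate 2 was lowest in macrophage (0.52, against 1.17 and 1.03), endothelium (3.18, against 3.89 and 3.93) and mesenchyme genes (1.74, against 2.34 and 2.46). The part of either in these ranks was not tested. The SD of a member was 15.2% of its mean at E12.5 in the median, 15.1% at E14.5 and 17.6% at E16.5, and was 6.65% at E10.5 and 3.72% in whole body.

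Other genes of these pathways moved with the members from E10.5 to E16.5. Of 41 further replication genes 34 were lower and 4 higher, where 36.7% of all genes were lower and 37.2% higher. Their median was -1.71. Orc1 (-3.27), a subunit of the origin recognition complex that binds origins, and Clspn (-2.62), a fork protein, fell most. Orc2 (0.43), Orc3 (0.22), Orc4 (0.46) and Pold2 (0.24) were higher, but with crystallins removed and equal totals none of the 41 was, and Orc2 (-0.04), Orc3 (-0.25) and Pold2 (-0.23) turned. That scaling lowered the median of all genes by -0.452 (log2) in this comparison and the share of called genes that were higher from 50.3% to 30.6%. Of 48 further mitosis genes 46 were lower, where 36.7% of all genes were. Their median was -2.10, and the largest change was in Kif20a (-2.80), a motor of cytokinesis. Zwint (0.24), a kinetochore protein, was higher, but at -0.24 with crystallins left out and at -0.32 after quantile normalization.

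The genes upstream of S phase split. Cdk4 and Cdk6, the kinases of D-type cyclins, changed by -1.51 and -1.52, while Ccnd3 rose (0.80) and Ccnd1 (-0.13) and Ccnd2 (0.05) were not called. Both of the last were lower with crystallins left out (-0.60 and -0.43). Of 8 CDK inhibitors and pocket proteins, which hold back the cell cycle, 6 were higher and 2 lower, where 37.2% of all genes were higher and 36.7% lower. These counts were the same under all 3 rescalings. Cdkn1c, an inhibitor of cyclin-dependent kinases, rose most (3.47 ± 0.12, adjusted p = 3.57e-12), and Rbl2 (1.63), Cdkn2c (1.25), Rb1 (0.95), Cdkn2d (0.82) and Cdkn1b (0.70) were also higher. Cdkn1a (-0.96) and Rbl1 (-0.85) were lower. In FPKM Cdkn1c went from 139 ± 9.11 at E10.5 to 1547 ± 44.7 at E16.5 (SD, n = 3), with 321 ± 21.2 in whole body. Of 14 further E2F and MuvB factors, 9 were lower, where 36.7% of all genes were, led by E2f7 (-3.10) and E2f8 (-2.12), which repress E2F targets, and 1 was higher, E2f5 (0.32), which stood at -0.15 with crystallins left out. With crystallins removed and equal totals 12 of these 14 were lower and none higher, and after quantile normalization 11 were lower and none higher.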

How the data were processed

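Values were FPKM for each assembled transcript, as deposited by the authors. Per the submitters' processing notes, mm10, Trimmomatic, TopHat2 2.0.9, Cufflinks and Cuffnorm were used, with no order, strand setting or depth stated. Of 48306 transcripts, 172 of class x (on the other strand of an annotated exon) were dropped and the rest summed by gene symbol. The filter on low values asked for 1 FPKM or more in 3 or more libraries and removed 80 genes. Another 3 genes, at 0 beside a replicate of 50 FPKM or more, were not tested, which left 14532. The FPKM sums of the libraries differed (707562 to 1629915), while their median transcript values were 2.81 to 3.21, so rescaled values were tried as alternatives.

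All 15 libraries entered 1 limma fit (version 3.58.1, R 4.3.3) of log2(FPKM + 1), a pseudocount of 1, with a mean for every group, no replicate block, a trended prior and 10 residual degrees of freedom. Benjamini-Hochberg adjustment ran over all genes within each of 8 comparisons and the moderated F test over the 4 lens stages. The labels name biological replicates but no litters, so p-values measure the spread between these libraries. The fits were tested on simulated data in which each gene had the same spread in every group. The members here had unequal spreads between groups, which that test does not cover. Gene positions are those of GENCODE vM21 (mm10), and promoter windows are from RefSeq. Plots used matplotlib 3.10.9 (Python 3.11.15).

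The members and the other gene lists were chosen with earlier results of these data known. Values in every library are printed for the 4 members with the largest and the 3 with the smallest changes from E10.5 to E16.5 in each class, for Mki67, Pcna, Mcm2, Cdk1, Ccnb1 and Top2a, and for members called in the direction opposite to most called members. Other members are named by their log2 fold changes. Alternatives were a pseudocount of 0.1, no filter, 3 rescalings, a replicate block, only the compared groups, no trend, only reference or leading transcripts, and leaving out libraries.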

Additional observations from a re-analysis of the deposited data

How the results depend on the processing

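The counts of members called against whole body at E12.5 (42), E14.5 (44) and E16.5 (44), from E10.5 to E16.5 (44) and from E10.5 to E12.5 (43) moved by less than 1.5 times under every alternative run, with ranges of 42 to 42, 44 to 44, 44 to 44, 44 to 44 and 41 to 44 when each library was left out in turn, and the F test called 43 to 44. Against whole body at E10.5 the 11 called became 20 (14 higher, 6 lower) with only the compared groups, and ranged from 7 to 12 with each library left out. From E12.5 to E14.5 the 34 became 17 with only the compared groups and ranged from 22 to 37. From E14.5 to E16.5 the 38 became 1 with only the compared groups and 24 with reference transcripts only, and ranged from 17 to 41. The cause of these moves was not tested. A fit of only the compared groups takes its spread from its own 6 libraries. The SD of a member was in the median 6.65% of its mean at E10.5 and 3.72% in whole body. At E12.5, E14.5 and E16.5 it was 15.2%, 15.1% and 17.6%.

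Replication minus mitosis was -0.07 at E10.5 and 0.06 at E12.5 after quantile normalization, 0.06 at E12.5 with reference transcripts only, and -0.15 and 0.10 with leading transcripts only. In whole body it turned to 0.06 and 0.07 under the last pair. Without E10.5 replicates 1 and 3 it was -0.15 at E10.5, 0.06 at E12.5 and -0.05 in whole body. With each library left out it ranged from -0.14 to -0.11 at E10.5, 0.07 to 0.10 at E12.5, -0.03 to 0.01 at E14.5, 0.05 to 0.10 at E16.5 and -0.04 to -0.01 in whole body. Fen1 at E10.5 against whole body turned to 1.55 with its leading transcript only, which read 0.09, 4.24 and 0.04 FPKM in whole body.

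With a replicate block the counts were 12 for E10.5, 42 for E12.5, 44 for E14.5 and 44 for E16.5 against whole body, 43, 34 and 37 for the steps, 44 from E10.5 to E16.5 and 44 by the F test. Same-numbered libraries correlated over 0.1 in 4 of 30 pairs (-0.0946 to 0.2373). Differently numbered libraries were not correlated for reference, so whether the numbers pair the samples cannot be told. With crystallins removed and equal totals, the share of called genes that were higher went from 53.1% to 40.5% (E10.5 to E12.5), 48.7% to 21.5% (E12.5 to E14.5), 59.7% to 35.1% (E14.5 to E16.5), 46.5% to 35.1%, 45.6% to 28.8% and 45.9% to 28.0% (E12.5, E14.5 and E16.5 against whole body). From E14.5 to E16.5 it was 46.5% after quantile normalization. Removing crystallins moved the median gene by up to -0.5 (log2), and quantile normalization by up to 0.114. Depth is unknown.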
